A study of Mus musculus with 15 samples.

Results

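The histone methylation and deacetylation enzymes are 69 protein-coding genes out of the 53023 genes in a table of RNA levels from mouse 2-cell embryos. They were chosen by gene symbol and not by their values, as the Kdm lysine demethylases, the Kmt, Setd, Ehmt, Suv39h and Prmt methyltransferases, the Hdac and Sirt deacetylases, and Ezh1, Ezh2, Eed and Suz12. The 1 Y-linked gene that matches these names was left out. Eed and Suz12 carry no catalytic site, and some of the other gene products act mainly on proteins other than histones. Hdac6 deacetylates tubulin, Setd3 methylates a histidine of actin, and Sirt3, Sirt4 and Sirt5 lie in mitochondria, so the name covers more than histone enzymes.

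Methyltransferases add methyl groups to lysines and arginines of histone tails, demethylases take them off, and deacetylases remove the acetyl groups that acetyltransferases add. Methylation of H3K4 is typical of active promoters, that of H3K36 of transcribed gene bodies, and that of H3K9 and H3K27 of silenced chromatin. In the mouse, the egg supplies many of these enzymes as stored mRNA and protein, and the embryo starts broad transcription of its own genome at the 2-cell stage, while the marks inherited from the gametes are being rewritten.

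The study asked how transcription in early embryos changes when filamentous actin of the nucleus is disturbed by R62D actin, with wild-type actin (Wt) and embryos without injection as controls. All embryos were of the ICR strain, were made by in vitro fertilization and were taken 32 hours after insemination. Each library is a pool of 5 embryos, and there are 6 libraries in 3 pairs. What each pair received is uncertain, because its title names one treatment and its characteristics another. Pair C (libraries C1 and C2) carries control titles, but its characteristics list actinR62D-HA-NLS as the injected mRNA. That mRNA encodes an actin mutant unable to polymerise, fused to an HA tag and to a signal for import into the nucleus. Pair B (B1 and B2) carries R62D titles, but its characteristics list actinWT-HA-NLS, wild-type actin in the same fusion. Pair A (A1 and A2) carries Wt titles, but its characteristics list Non-injected. Injection, where it took place, was at 2 hours after insemination. The mRNA was injected into fertilized eggs, and none of these pairs is a genetic model. Each comparison is described under both readings, and the values were not used to settle which one holds. A further 9 libraries of the series were not analysed here.

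Levels are in FPKM as deposited by the authors, a unit that divides fragments by the length of the gene and the size of the library, so genes can be compared. The libraries held 907210 to 1555431 assigned reads, of which 3879 to 6952 (0.419% to 0.498%) fell on the 69 genes. C2 and A2 stood apart from the other libraries on the first principal component, with scores of 49.7 and 49.3 against -32.7 to -11.1, so results are also given below without them. Transcripts that mark the 2-cell stage were present in all 6 libraries. The 9 listed genes summed to 1352 and 1048 FPKM in pair C, 1633 and 2060 FPKM in pair B, and 1229 and 813.5 FPKM in pair A. The 11 markers of cumulus and granulosa cells summed to 2.11 and 2.05 FPKM in pair C and 3.27 and 3.10 FPKM in pair B. In pair A they summed to 0.464 and 0.523 FPKM. Foxl2, Fshr, Inhba and Ptx3 were at 0 in all 6 libraries. These sums rest on 8.5 and 4.5 reads in pair C, 10 and 7 in pair B, and 2 and 1 in pair A. Most of each sum was Tnfaip6, except in A1, where that gene was at 0. The blood globin gene Hba-a1 stood at 15.8 and 4.75 FPKM in pair C, 39.1 and 23.4 FPKM in pair B, and 42.3 and 8.81 FPKM in pair A, and its near-identical copy Hba-a2 followed it, so the split between the 2 is uncertain. The 8 sperm and spermatid markers summed to 31.4 to 52.1 FPKM, most of it Ldhc, with Odf1, Prm1 and Tnp2 at 0. In pooled embryos, fewer cells holding a transcript and less of it per cell cannot be told apart.

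Of the 69 genes, 55 had reads in all 6 libraries and 47 (68.1%) had a mean of at least 1 FPKM, against 40.7% of all 21963 protein-coding genes. The 16 averaging 10 FPKM or more include 10 in the top 10% of protein-coding genes, which begins at 19.7 FPKM. Suz12, Sirt1, Setd2 and Eed alone made up 45.4% of the summed level of all 69, and the highest 10 made up 69.3%. The summed level was 696.6 and 675.9 FPKM in pair C, 693.4 and 777.5 FPKM in pair B, and 671.1 and 672.4 FPKM in pair A, so that B2 was highest and the other 5 libraries lay close together. Among the 47 genes the median mean was 5.13 FPKM, close to the 5.87 FPKM of all protein-coding genes above the same level. Ehmt2 (1.04 FPKM) and Prmt9 (1.01 FPKM) were just above the limit of 1 FPKM, and Kdm6b (0.891 FPKM) and Kdm8 (0.845 FPKM) just below it.

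**Figure D1:**
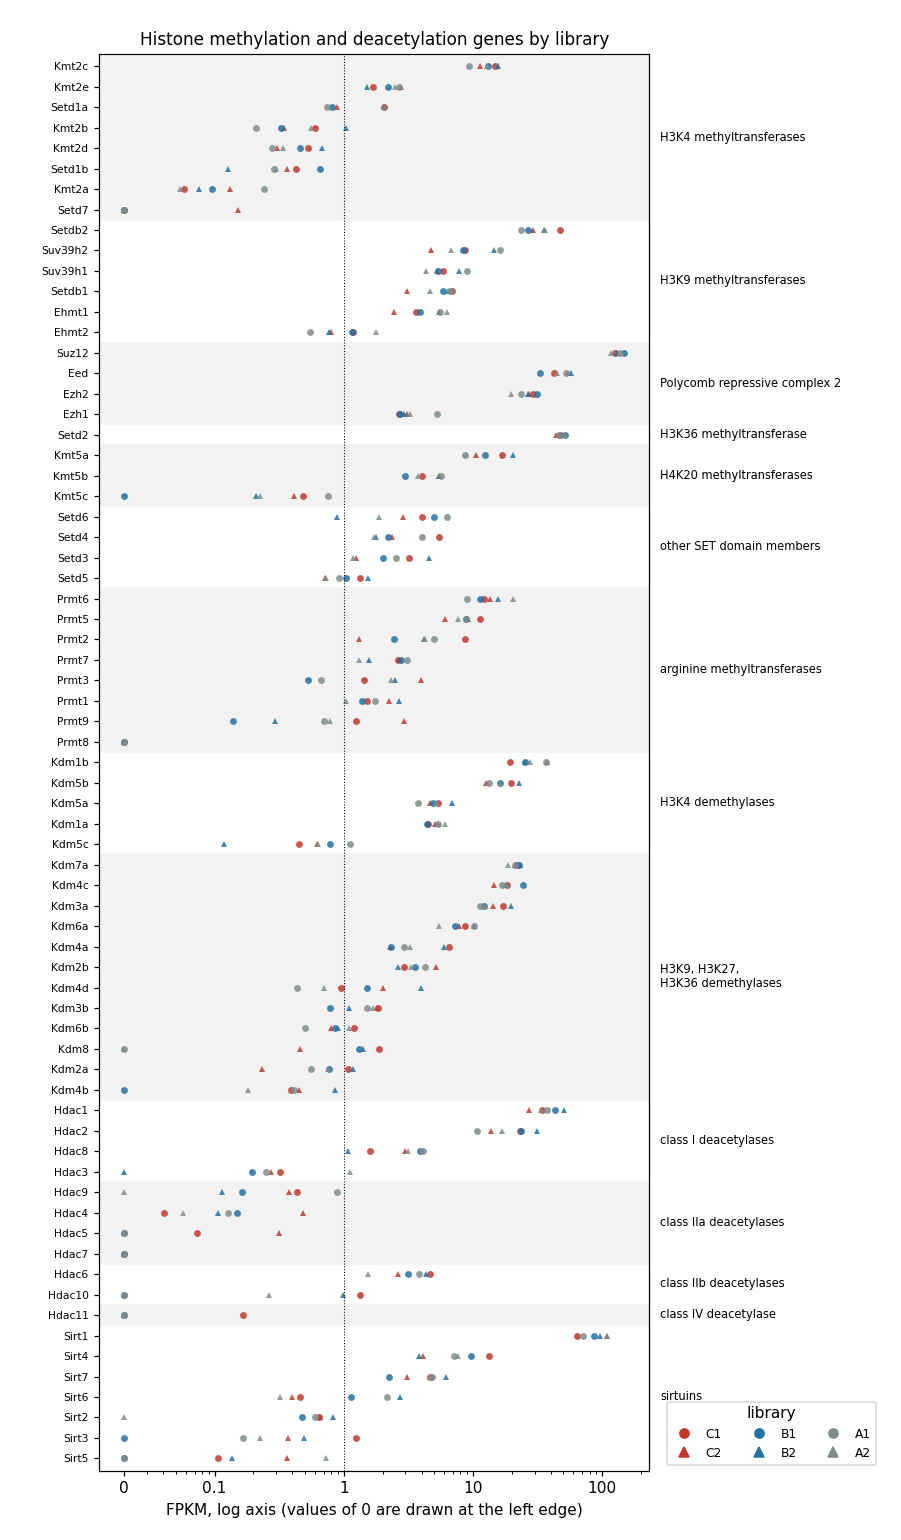
FPKM of each of the 69 genes in each of the 6 libraries, on a log axis with values of 0 at the left edge, grouped by role; colours mark the pairs, circles and triangles the libraries, and the dotted line 1 FPKM. Polycomb repressive complex 2, Sirt1 and Setd2 sit at the right, with Suz12 between 117 and 149 FPKM, while the class IIa deacetylases and most H3K4 methyltransferases lie below 1 FPKM.

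The highest level of all belonged to Polycomb repressive complex 2, which methylates H3K27. Suz12 (chr11:79993106-80034123 in mm10, forward strand), a core subunit without catalytic activity, stood at 125 and 131 FPKM in pair C, 149 and 130.2 FPKM in pair B, and 137 and 117 FPKM in pair A. Eed, the subunit that binds methylated H3K27, stood at 42.4 and 54.6 FPKM in pair C, 33.0 and 57.6 FPKM in pair B, and 52.9 and 44.9 FPKM in pair A. The 3 pairs overlapped for both genes, and the highest and lowest Eed values were the 2 libraries of pair B. Ezh2, the main catalytic subunit, stood at 29.3 and 26.99 FPKM in pair C, 31.6 and 26.6 FPKM in pair B, and 23.4 and 19.8 FPKM in pair A. Its alternative Ezh1 stood at 2.68 and 3.11 FPKM in pair C, 2.71 and 2.93 FPKM in pair B, and 5.24 and 3.25 FPKM in pair A. Both A libraries were the lowest for Ezh2 and the highest for Ezh1. Ezh2 exceeded Ezh1 in all 6 libraries, by 4.46 to 11.6 times.

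Setd2 (chr9:110532597-110618633, forward strand), which places the trimethyl mark on H3K36, had the narrowest range of the 16 genes at 10 FPKM or more. It stood at 47.5 and 44.2 FPKM in pair C, 51.7 and 49.3 FPKM in pair B, and 46.2 and 51.7 FPKM in pair A, a highest value 1.17 times the lowest. Across those 16 genes this ratio had a median of 1.74 and reached 2.91 in Hdac2, against a median of 1.94 for all 3354 protein-coding genes at that level.

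The H3K9 methyltransferases were led by Setdb2, with 46.9 and 29.1 FPKM in pair C, 26.6 and 35.8 FPKM in pair B, and 23.7 and 36.4 FPKM in pair A. Setdb1, its relative that silences endogenous retroviruses, stood at 6.83 and 3.10 FPKM in pair C, 5.83 and 6.39 FPKM in pair B, and 6.64 and 4.63 FPKM in pair A. Setdb2 was therefore the higher of the 2 in all 6 libraries, with a ratio of Setdb1 to Setdb2 of 0.106 to 0.280. Suv39h2, which trimethylates H3K9 in pericentromeric chromatin, stood at 8.67 and 4.75 FPKM in pair C, 8.43 and 14.6 FPKM in pair B, and 16.2 and 6.79 FPKM in pair A. Suv39h1, on the X chromosome, stood at 5.86 and 5.23 FPKM in pair C, 5.40 and 7.86 FPKM in pair B, and 8.92 and 4.33 FPKM in pair A. Suv39h2 exceeded Suv39h1 in 5 of 6 libraries, and C2 was the exception, with a ratio of 0.908. Of its exon bases, Suv39h1 shares 14.6% with the antisense gene Gm14820. Ehmt1, which forms with Ehmt2 the enzyme that dimethylates H3K9, stood at 3.64 and 2.44 FPKM in pair C, 3.90 and 5.41 FPKM in pair B, and 5.54 and 6.28 FPKM in pair A. Its partner Ehmt2 stood at 1.17 and 0.803 FPKM in pair C, 1.152 and 0.763 FPKM in pair B, and 0.546 and 1.79 FPKM in pair A. Ehmt1 was the higher in all 6 libraries.

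The genes grouped here as H3K4 methyltransferases were mostly low, with 5 of 8 below a mean of 1 FPKM. Whether each product, Kmt2e included, methylates H3K4 was not examined. Setd1a, catalytic subunit of a complex that trimethylates promoters, stood at 2.07 and 0.892 FPKM in pair C, 0.814 and 2.03 FPKM in pair B, and 0.736 and 2.04 FPKM in pair A. It shares 51.9% of its exon bases on the same strand with AC149222.1, so its level is uncertain. Setd1b, the subunit of the sister complex, stood at 0.426 and 0.365 FPKM in pair C, 0.655 and 0.127 FPKM in pair B, and 0.290 and 0.296 FPKM in pair A, below Setd1a in all 6 libraries. Kmt2a, needed for Hox gene expression in the mouse, stood at 0.0579 and 0.132 FPKM in pair C, 0.0949 and 0.0753 FPKM in pair B, and 0.240 and 0.0537 FPKM in pair A, on 12 reads over all 6 libraries. Kmt2b, which trimethylates H3K4 in mouse oocytes, stood at 0.603 and 0.345 FPKM in pair C, 0.330 and 1.05 FPKM in pair B, and 0.208 and 0.559 FPKM in pair A, above Kmt2a in 5 of 6 libraries. The Kmt2a reads were too few to order the libraries. Kmt2d, which monomethylates H3K4 at enhancers, stood at 0.533 and 0.305 FPKM in pair C, 0.457 and 0.673 FPKM in pair B, and 0.277 and 0.337 FPKM in pair A. The single gene of this class above 10 FPKM was Kmt2c, the relative of Kmt2d, with 9.39 to 15.5 FPKM over the 6 libraries. Kmt2e averaged 2.23 FPKM, and Setd7 had reads in C2 only, at 0.153 FPKM.

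H4K20 is monomethylated by Kmt5a, which stood at 16.8 and 10.5 FPKM in pair C, 12.3 and 20.3 FPKM in pair B, and 8.67 and 8.85 FPKM in pair A. Both A libraries were the lowest. Kmt5b and Kmt5c, which add the further methyl groups, averaged 4.54 and 0.346 FPKM. Among the 4 SET domain genes with other or uncertain targets, means lay between 1.05 FPKM (Setd5) and 3.50 FPKM (Setd6). The actin methyltransferase Setd3 stood at 3.22 and 1.25 FPKM in pair C, 2.03 and 4.58 FPKM in pair B, and 2.54 and 1.19 FPKM in pair A, with overlap between all pairs.

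Of the arginine methyltransferases, Prmt6 averaged 13.8 FPKM and was the only one above 10 FPKM, and 23.5% of its exon bases are shared with the antisense gene C130013H08Rik. Prmt5, which makes symmetric dimethylarginine, stood at 11.4 and 6.13 FPKM in pair C, 8.79 and 9.20 FPKM in pair B, and 8.84 and 7.68 FPKM in pair A. Prmt1, which makes most of the asymmetric form, stood at 1.502 and 2.25 FPKM in pair C, 1.39 and 2.69 FPKM in pair B, and 1.75 and 1.04 FPKM in pair A. Prmt5 exceeded Prmt1 in all 6 libraries, by 2.72 to 7.57 times. Prmt2, Prmt3, Prmt7 and Prmt9 had means of 1.01 to 4.31 FPKM. Prmt8, best known from the nervous system, was listed at 0 in all 6 libraries, which allows up to 0.708 FPKM in the deepest and 1.21 FPKM in the shallowest library at a floor of 3 reads a library.

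Among the demethylases of H3K4, Kdm1b was the highest. This flavin-dependent enzyme, needed for maternal imprints in mouse oocytes, stood at 19.2 and 37.3 FPKM in pair C, 25.5 and 25.5 FPKM in pair B, and 37.0 and 27.5 FPKM in pair A, and shares 9.19% of its exon bases with Dek on the other strand, a gene at 149 FPKM. Kdm1a, its relative, stood at 4.47 and 5.11 FPKM in pair C, 4.43 and 5.33 FPKM in pair B, and 5.41 and 6.05 FPKM in pair A. Kdm1b exceeded Kdm1a in all 6 libraries, by 4.30 to 7.30 times. How far reads of Dek add to the level of Kdm1b was not tested, so its level and this ratio are uncertain. Kdm5b, which removes the trimethyl mark of H3K4, stood at 19.6 and 12.7 FPKM in pair C, 16.2 and 22.7 FPKM in pair B, and 13.3 and 16.3 FPKM in pair A. Kdm5a stood at 5.34 and 4.63 FPKM in pair C, 4.91 and 6.95 FPKM in pair B, and 3.74 and 5.31 FPKM in pair A. The ratio of Kdm5b to Kdm5a held between 2.73 and 3.67 in the 6 libraries, with the smallest quotient of highest to lowest among the 12 ratios computed. The X-linked Kdm5c stood at 0.452 and 0.620 FPKM in pair C and 0.778 and 0.118 FPKM in pair B. In pair A it stood at 1.12 and 0.629 FPKM. Its lowest value, in B2, rests on 1 read.

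The 12 demethylases of H3K9, H3K27 and H3K36 had 3 genes above 10 FPKM. Kdm7a, which acts on dimethylated H3K9 and H3K27, stood at 21.7 and 21.2 FPKM in pair C, 22.7 and 23.3 FPKM in pair B, and 21.0 and 18.6 FPKM in pair A. Kdm3a, which removes the lower methyl states of H3K9, stood at 17.0 and 14.2 FPKM in pair C, 12.1 and 19.6 FPKM in pair B, and 11.3 and 12.3 FPKM in pair A. Both A libraries were the lowest for Kdm7a and lay below both C libraries for Kdm3a. Kdm4c, the trimethyl-H3K9 demethylase of this group with the highest level, averaged 18.5 FPKM. Kdm4a, needed in mouse eggs for normal development of the embryo, stood at 6.56 and 2.29 FPKM in pair C, 2.32 and 5.94 FPKM in pair B, and 2.94 and 3.25 FPKM in pair A. The H3K27 demethylases differed in level. Kdm6a, on the X chromosome, stood at 8.67 and 7.76 FPKM in pair C, 7.26 and 10.2 FPKM in pair B, and 10.3 and 5.44 FPKM in pair A. Kdm6b stood at 1.202 and 0.793 FPKM in pair C, 0.853 and 0.903 FPKM in pair B, and 0.503 and 1.09 FPKM in pair A. Kdm6a exceeded Kdm6b in all 6 libraries, by 4.98 to 20.4 times. The other 6 genes of the class had means of 0.382 FPKM (Kdm4b) to 3.65 FPKM (Kdm2b).

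The deacetylases differed in level by class. Hdac1 (chr4:129516104-129542713, reverse strand), a class I enzyme of the Sin3, NuRD and CoREST complexes, stood at 34.0 and 26.9 FPKM in pair C, 43.1 and 50.5 FPKM in pair B, and 37.2 and 33.4 FPKM in pair A. Hdac2 (chr10:36974544-37001889, forward strand), its partner in the same complexes, stood at 23.0 and 13.8 FPKM in pair C, 23.5 and 31.2 FPKM in pair B, and 10.7 and 16.8 FPKM in pair A. Both B libraries were the highest for each gene, and Hdac1 exceeded Hdac2 in all 6 libraries, by 1.48 to 3.47 times. Hdac3, the enzyme of the NCoR and SMRT corepressors, stood at 0.319 and 0.274 FPKM in pair C, 0.196 and 0 FPKM in pair B, and 0.248 and 1.11 FPKM in pair A. Hdac3 was thus far below Hdac1 and Hdac2 in all 6 libraries. Hdac6, on the X chromosome, stood at 4.64 and 2.65 FPKM in pair C, 3.13 and 4.32 FPKM in pair B, and 3.82 and 1.54 FPKM in pair A, and the X-linked Hdac8 averaged 2.81 FPKM. The class IIa genes, whose products shuttle between nucleus and cytoplasm, had means of 0 (Hdac7) to 0.329 FPKM (Hdac9). Hdac7 was listed at 0 in all 6 libraries, which allows up to 0.286 FPKM in the deepest and 0.489 FPKM in the shallowest library. Hdac10 averaged 0.431 FPKM, and Hdac11 was seen in C1 alone, at 0.167 FPKM.

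Among the sirtuins, NAD-dependent deacetylases, a single gene carried most of the level. Sirt1 (chr10:63319005-63381704, reverse strand), a nuclear enzyme acting on histones and on p53, stood at 64.4 and 109.3 FPKM in pair C, 86.3 and 95.8 FPKM in pair B, and 70.8 and 109.6 FPKM in pair A. It was highest in C2 and A2, the libraries that stood apart on the first principal component, and lowest in C1 and A1. Sirt6, which deacetylates H3K9 at telomeres and promoters, stood at 0.462 and 0.396 FPKM in pair C, 1.14 and 2.71 FPKM in pair B, and 2.15 and 0.321 FPKM in pair A. Sirt1 exceeded Sirt6 in all 6 libraries, by 32.9 to 341 times. Sirt6 had only 1 to 9 reads a library, with 1 read in A2, where the ratio was highest. The size of the ratio is therefore uncertain. Sirt4 averaged 7.62 FPKM and the nucleolar Sirt7 4.27 FPKM, and Sirt2, Sirt3 and Sirt5 stayed below 1 FPKM on average.

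**Figure D2:**
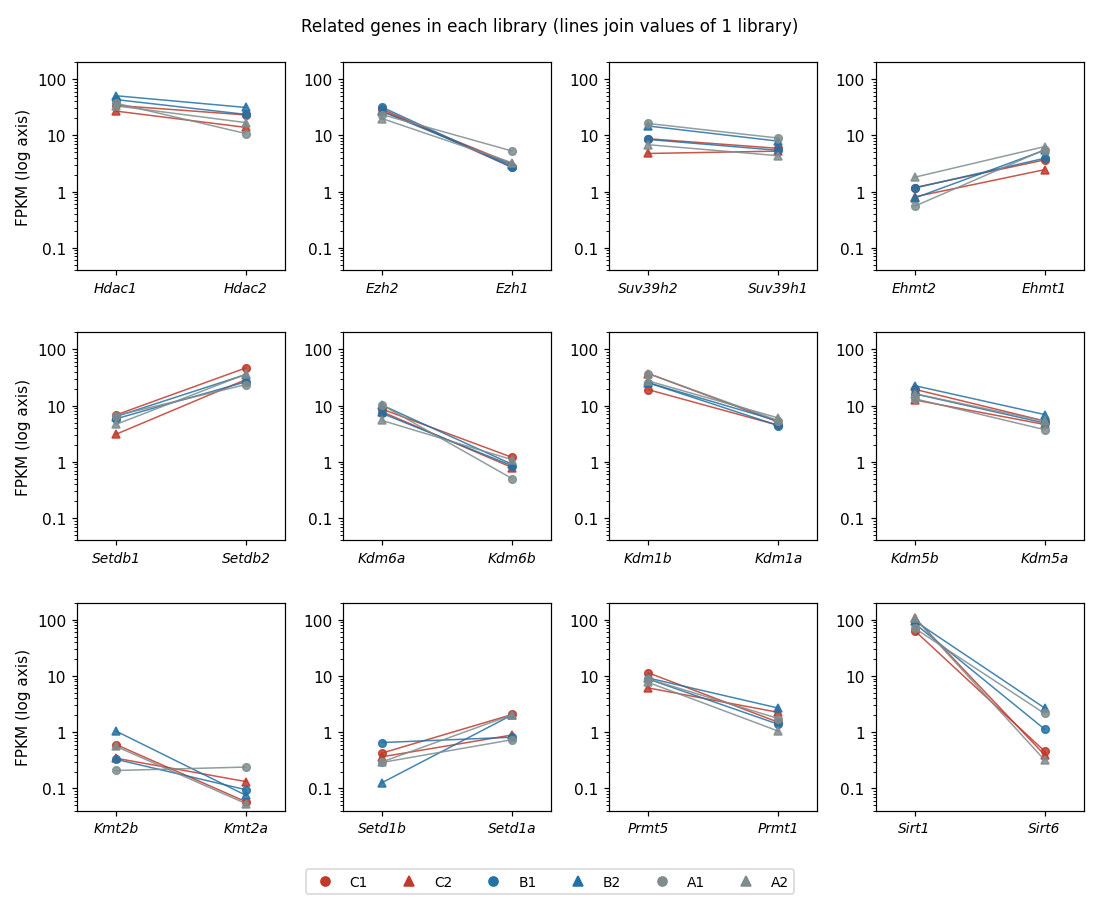
FPKM on a log axis of 12 pairs of related genes, with a line joining the values of the 2 genes in each of the 6 libraries; colours mark the pairs C, B and A. The lines run the same way in all 6 libraries for 10 of the 12 pairs of genes, and cross for Suv39h2 with Suv39h1 in C2 and for Kmt2b with Kmt2a in A1.

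The DNA around the annotated start of 58 of these genes was read from RefSeq (GRCm38.p6), 250 bases before to 50 bases after the start. Where a gene has several annotated starts, the one nearest to its outermost start in the deposited table was taken, and for 42 of the 58 genes the 2 lay within 100 bases of each other. These windows held a median of 21.5 CpG dinucleotides, against 14 in the windows of all 16401 protein-coding genes matched. For the 15 matched genes averaging 10 FPKM or more the median was 29, against 22 for all 2547 protein-coding genes at that level. The 15 matched genes below 1 FPKM had a median of 21, against 7 for all 9578 protein-coding genes below it. CpG content and level did not run in parallel in every gene, and 4 windows are printed to show this, with each CpG in capitals. Suz12 (chr11:79992856-79993155, forward strand) and Kdm4c (chr4:74242247-74242546, forward strand) are both above 10 FPKM and hold 41 and 0 CpG. Prmt8 (chr6:127769110-127769409, reverse strand, with a start 313 bases from the outermost one of the table) and Hdac7 (chr15:97844453-97844752, reverse strand) are both at 0 reads and hold 43 and 6 CpG.
Suz12: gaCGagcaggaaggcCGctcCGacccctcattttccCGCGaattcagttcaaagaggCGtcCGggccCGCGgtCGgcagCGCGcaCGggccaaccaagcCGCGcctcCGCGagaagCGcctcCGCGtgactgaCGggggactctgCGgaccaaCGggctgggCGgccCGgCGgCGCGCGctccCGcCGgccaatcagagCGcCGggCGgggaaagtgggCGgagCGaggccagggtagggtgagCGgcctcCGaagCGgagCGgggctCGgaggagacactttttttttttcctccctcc
Kdm4c: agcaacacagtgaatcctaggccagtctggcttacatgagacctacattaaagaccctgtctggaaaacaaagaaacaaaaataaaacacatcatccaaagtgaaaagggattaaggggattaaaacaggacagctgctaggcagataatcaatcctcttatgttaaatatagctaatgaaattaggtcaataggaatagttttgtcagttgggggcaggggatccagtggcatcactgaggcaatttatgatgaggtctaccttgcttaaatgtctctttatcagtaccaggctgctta
Prmt8: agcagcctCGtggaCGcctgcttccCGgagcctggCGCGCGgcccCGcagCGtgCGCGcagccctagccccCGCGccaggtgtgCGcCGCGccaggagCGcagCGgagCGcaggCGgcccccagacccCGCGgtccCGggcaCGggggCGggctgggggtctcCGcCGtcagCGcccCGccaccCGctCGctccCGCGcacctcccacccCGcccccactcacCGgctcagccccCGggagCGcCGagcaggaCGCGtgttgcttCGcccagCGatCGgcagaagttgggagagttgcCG
Hdac7: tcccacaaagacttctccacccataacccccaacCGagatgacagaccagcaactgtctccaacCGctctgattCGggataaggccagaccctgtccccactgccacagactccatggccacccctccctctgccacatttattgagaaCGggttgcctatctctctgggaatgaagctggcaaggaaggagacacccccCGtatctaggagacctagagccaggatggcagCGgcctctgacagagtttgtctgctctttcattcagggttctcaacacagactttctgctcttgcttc

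Of the promoter motifs searched for on both strands, the TATA box core TATAAA was in 5.17% of the windows of these genes and in 12.8% of all protein-coding windows. The Sp1-type GC box GGGCGG was in 62.1% and 48.2%, CCAAT in 46.6% and 38.7%, the Ets-type CCGGAAG in 17.2% and 12.3%, and the E-box CACGTG in 10.3% and 8.11%. None of these motifs contains another, and a match is a description of letters and not a bound site. The windows of Hdac1, Kdm5a, Kmt2e, Kdm3b, Kdm6b, Kdm2a, Kmt2b, Hdac10, Kdm4b, Setd1b and Hdac3 were not used here.

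**Figure D3:**
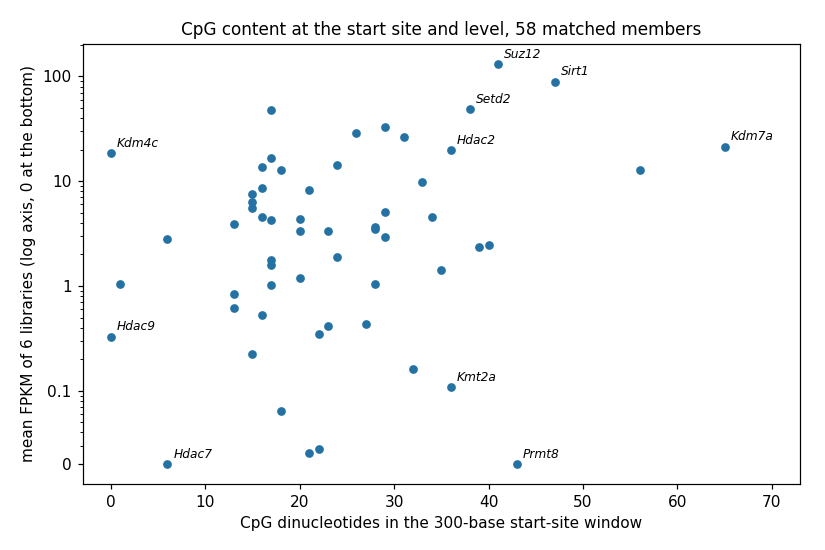
Mean FPKM of the 6 libraries (log axis, 0 at the bottom) against the number of CpG dinucleotides in the 300-base window at the annotated start, 1 point for each of the 58 matched genes. Kdm7a has the most CpG (65), Kdm4c is at 18.5 FPKM with 0 CpG, and Prmt8 is at 0 FPKM with 43 CpG.

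Differences between pairs were tested with limma on log2(FPKM + 1) over all 13443 genes averaging 1 FPKM or more, which include 47 of the 69 genes. Whether the pools of a pair were separate experiments is not stated, and the p-values therefore describe the variation among these pools alone. The 3 comparisons share libraries, and their results are not independent of each other. With 2 libraries against 2, an exact two-sided permutation test of a single gene cannot go below p = 0.333, so no such test was used. In every comparison 0 of the 47 genes had an adjusted p below 0.05, and the background was 0% of the 13443 genes (0 genes). At an unadjusted p below 0.05 there were 220 genes higher and 298 lower in pair C than in pair B. There were 225 and 180 in C against A, and 373 and 241 in B against A. A fit of reads recovered from the FPKM values (limma-voom) also called 0 genes in each. The smallest adjusted p of any of the 47 was 0.991, in B against A. The 95% intervals show what the data could have missed. Their half-width on the log2 scale was 0.62 for Suz12, the narrowest, 1.01 at the median and 1.61 for Setd6, the widest. A change of 1 in either direction on this log2(FPKM + 1) scale lay outside the interval for 12 of the 47 genes between C and B. It did so for 9 between C and A and for 6 between B and A, and the other intervals included such a change. A change of 1 on this scale is more than 2-fold in FPKM, most so for low genes, so some of these intervals still include a 2-fold change in FPKM.

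C against B is, by the characteristics, R62D actin against wild-type actin and, by the titles, the non-injected control against R62D. Hdac1 and Hdac2, both class I deacetylases, had the lowest unadjusted p among the genes at 5 FPKM or more whose pairs did not overlap. Hdac1 averaged 30.5 ± 5.00 FPKM in pair C and 46.8 ± 5.20 FPKM in pair B (SD, n = 2 each), and Hdac2 averaged 18.4 ± 6.50 FPKM in pair C and 27.4 ± 5.47 FPKM in pair B. The log2 fold changes were -0.61 ± 0.30 (SE) for Hdac1 and -0.58 ± 0.40 for Hdac2, both with an adjusted p of 1 in limma. Both C libraries lay below both B libraries for each gene. The summed levels of 2-cell markers and of cumulus and granulosa cell markers were also lower in both C libraries than in both B libraries. The cumulus and granulosa sums rest on 4.5 to 10 reads a library. Hba-a1 was lower in pair C in the same way, and the part of these markers in the differences was not tested. For Setd2 and Kdm7a the pairs did not overlap either, but the log2 fold changes were -0.14 ± 0.28 and -0.10 ± 0.30 (adjusted p of 1 in limma). Over the 47 genes, both C libraries lay above both B libraries for 3 genes (6.38%), where the background was 15.5% of all tested genes, and below for 6 (12.8%), where the background was 14.8%. Neither share stands above its background. No gene of the 47 had an unadjusted p below 0.05 (background 1.64% higher and 2.22% lower), and Prmt9 came closest with a log2 fold change of 1.29 ± 0.55 and an unadjusted limma p of 0.0518, on 1 to 15 reads a library. Under 10 of the 17 alternatives Prmt9 had an unadjusted p below 0.05, with 0.00334 the lowest (limma-voom on recovered reads), and no other gene of the 47 did. The median log2 fold change was -0.05, against 0 for all tested genes, and 20 of 47 coefficients were above 0 (42.6%, background 49.9%).

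C against A is, by the characteristics, R62D actin against Non-injected and, by the titles, the non-injected control against Wt. Kmt5a averaged 13.7 ± 4.49 FPKM in pair C and 8.76 ± 0.129 FPKM in pair A (SD, n = 2 each), a log2 fold change of 0.55 ± 0.39. Ezh2 averaged 28.1 ± 1.61 FPKM in pair C and 21.6 ± 2.498 FPKM in pair A, a log2 fold change of 0.37 ± 0.30. Kdm3a had a log2 fold change of 0.37 ± 0.36, and Kdm1a one of -0.22 ± 0.36. The adjusted p was 1 in limma for each of these 4 genes, although their pairs did not overlap. The cumulus and granulosa cell markers summed to a higher level in both C libraries than in both A libraries, on 1 to 8.5 reads a library. Their part was not tested. Ezh1, below the level used for naming, had a log2 fold change of -0.40 and pairs that did not overlap. Over the 47 genes, both C libraries lay above both A libraries for 7 genes (14.9%, background 16.5%) and below for 5 (10.6%, background 10.4%), shares close to the background. No gene of the 47 had an unadjusted p below 0.05 (background 1.67% higher and 1.34% lower). By role, coefficients above 0 numbered 7 of 8 for the demethylases of H3K9, H3K27 and H3K36 (median 0.12). The arginine methyltransferases had 5 of 7 (0.25). The H3K9 methyltransferases had 1 of 6 (-0.18), the sirtuins 1 of 4 (-0.16) and the class I deacetylases 1 of 3 (-0.21). The H4K20 methyltransferases had 2 of 2, other SET domain genes 3 of 4 and H3K4 methyltransferases 2 of 3. Polycomb genes and H3K4 demethylases had 2 of 4 each, Setd2 0 of 1 and Hdac6 1 of 1. After median scaling the arginine methyltransferases had 4 of 7 and the sirtuins 0 of 4. The H4K20 methyltransferases then had 1 of 2 and Polycomb genes 1 of 4, and the other roles were unchanged. Unscaled, the same demethylases had 4 of 8 in C against B and 6 of 8 in B against A. The arginine methyltransferases had 4 of 7 and 3 of 7 there. The H3K9 methyltransferases had 2 of 6 and 4 of 6, the latter 1 of 6 after scaling. The sirtuins had 1 of 4 and 2 of 4, and the class I deacetylases 1 of 3 and 2 of 3. The median of C against A was 0.03 over the 47 genes and 0.06 over all tested genes. Above 0 were 27 of 47 coefficients (57.4%, background 56.5%).

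B against A is, by the characteristics, wild-type actin against Non-injected and, by the titles, R62D against Wt. Hdac2 averaged 27.4 ± 5.47 FPKM in pair B and 13.8 ± 4.29 FPKM in pair A (SD, n = 2 each). Its log2 fold change of 0.96 ± 0.40 had an unadjusted p of 0.0446 and an adjusted p of 0.991 in limma, with a 95% interval of 0.03 to 1.89. It was the only 1 of the 47 genes with an unadjusted p below 0.05 (2.13%), where the background was 2.77% higher and 1.79% lower. Kmt5a averaged 16.3 ± 5.70 FPKM in pair B and 8.76 ± 0.129 FPKM in pair A, a log2 fold change of 0.79 ± 0.39. The log2 fold changes of Ezh2 and Hdac1 were 0.41 ± 0.30 and 0.39 ± 0.30. The pairs did not overlap for any of these 4 genes, and the adjusted p of the other 3 was also 0.991. The 2-cell markers and the cumulus and granulosa cell markers summed to higher levels in both B libraries than in both A libraries. Single genes of both lists did not all follow their sum. The cumulus and granulosa sums there rest on 1 to 10 reads a library. The share of reads on mitochondrial genes was lower, at 8.24% and 10.2% in pair B and 10.6% and 13.1% in pair A. The part of these in the differences was not tested. Both B libraries lay above both A libraries for 8 of the 47 genes (17.0%, background 18.8%) and below for 8 (17.0%, background 12.8%). The median was 0.05, against 0.07 over all tested genes, and 28 of 47 coefficients were above 0 (59.6%, background 55.1%), or 21 of 47 after median scaling.

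**Figure D4:**
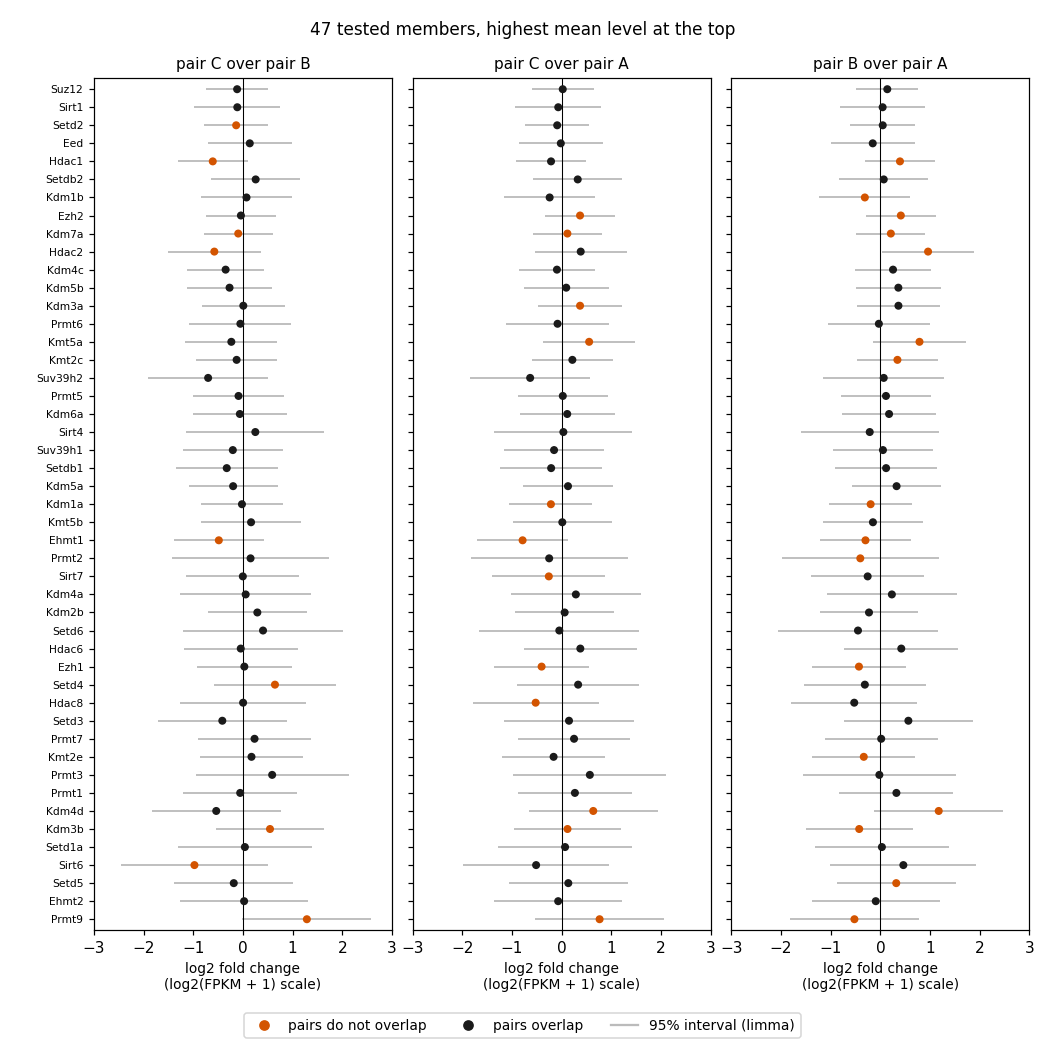
Log2 fold change (log2(FPKM + 1) scale) of the 47 tested genes in C over B, C over A and B over A, with 95% limma intervals as lines, ordered by mean level; orange points mark genes whose pairs do not overlap. Only the interval of Hdac2 in B over A, 0.03 to 1.89, lies clear of 0.

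**Figure D5:**
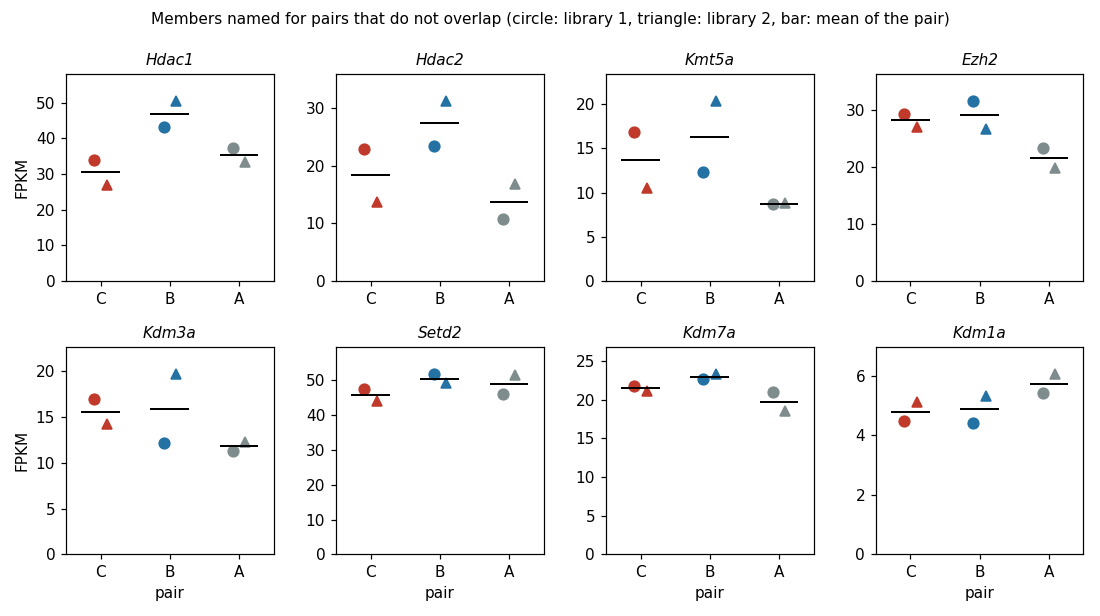
FPKM of 8 genes by pair, with a point for each library and a bar at the mean of the 2. Hdac1 and Hdac2 are highest in both B libraries, and Kmt5a and Ezh2 are lowest in both A libraries.

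Leaving out C2 and A2, the libraries that stood apart, called none of the 47 genes. The log2 fold changes of Hdac1 and Hdac2 in C against B became -0.45 and -0.23. In C against A, Kmt5a and Kdm3a became 0.88 and 0.55, Ezh2 0.31 and Kdm1a -0.23. In B against A, Hdac2 became 1.26, Kmt5a 0.80, Ezh2 0.30 and Hdac1 0.32. The direction stayed for all of these, which was fixed in advance, because the genes were chosen for pairs that do not overlap. Pairs C and A then held 1 library each. Leaving out 1 library moved several of these values by over 1.5 times. Hdac2 in C against B became -0.93 without C1, -0.23 without C2 and -0.38 without B2. Kmt5a became 0.24 without C1 and 0.87 without C2 in C against A, and 0.45 without B2 in B against A. Library by library, the 47 genes had a median deviation from their own mean of 0.09 and -0.13 in pair C, -0.03 and 0.22 in pair B, and 0.05 and -0.09 in pair A on the log2 scale, so the 2 libraries of a pair differed from each other by more than the medians of the comparisons. Over all tested genes the same deviation was 0.12 and -0.06 in pair C, 0.02 and 0.03 in pair B, and -0.01 and -0.08 in pair A. B2 had 33 of the 47 genes above their mean.

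Other genes of histone modification, taken from lists of further methyltransferases and demethylases, of partner subunits and of acetyltransferases, numbered 66, of which 50 were tested. None had an adjusted p below 0.05 in any comparison (limma). At an unadjusted p below 0.05 there were 0 in C against B, 1 higher and 1 lower in C against A, and 1 higher in B against A. The higher one in C against A was Cxxc1, a DNA-binding subunit of the Setd1a and Setd1b complexes, with a log2 fold change of 1.48 ± 0.53 (unadjusted p 0.0265 and adjusted p 1 in limma). It averaged 1.12 FPKM over the 6 libraries, below the level used for naming, and is named because of its value. Kat7, an acetyltransferase of H3K14, stood at 4.82 and 2.59 FPKM in pair C and 7.77 and 8.56 FPKM in pair A, with 6.57 and 8.32 FPKM in pair B. Its log2 fold change was -1.003 ± 0.393 in C against A (unadjusted p 0.0370 and adjusted p 1 in limma). Rbbp7, a histone-binding subunit shared by Polycomb repressive complex 2 and the Hdac1 and Hdac2 complexes, stood at 192 and 273 FPKM in pair B and 161 and 120 FPKM in pair A, with 203 and 193 FPKM in pair C. Its log2 fold change was 0.72 ± 0.30 in B against A (unadjusted p 0.0498 and adjusted p 0.991 in limma). The 12 tested partners of methyltransferases had 12 coefficients above 0 in C against A, with a median of 0.25, and the 15 tested partners of deacetylases had 14 above 0 in B against A, with a median of 0.34, where 56.5% and 55.1% of all tested genes were above 0. The acetyltransferases had 2 of 9 above 0 in C against A (median -0.18) and 2 of 9 in C against B (-0.22), and the partners of deacetylases had 4 of 15 in C against B (-0.13), where 49.9% of all tested genes were above 0. After median scaling these counts were 11 of 12, 12 of 15 and 5 of 15 for partners. Both counts of acetyltransferases stayed at 2 of 9. Unscaled, C against B also had 7 of 12 partners of methyltransferases, 6 of 9 further methyltransferases and 3 of 5 further demethylases above 0. In C against A, 8 of 15 partners of deacetylases, 7 of 9 further methyltransferases and 4 of 5 further demethylases were above 0. B against A had 10 of 12 partners of methyltransferases and 7 of 9 acetyltransferases (4 of 9 after scaling). Further methyltransferases had 5 of 9 there and further demethylases 4 of 5.

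The depth behind these values sets their reach. Of the 47 tested genes, 23 had fewer than 20 reads in at least 1 library, and 17 of the 69 genes had 10 or fewer reads in every library. Suz12 rested on 4572 reads over the 6 libraries, which gives a 95% Poisson interval of 128 to 135 FPKM for the pooled level, and Hdac2 on 48 to 167 reads a library. The variance between libraries was a median of 3.95 times that of counting error among the 47 genes, and only Kdm1a and Prmt1 varied no more than counting error. Such intervals cover counting error only, since PCR copies could not be told from separate molecules. Some reads were counted as fractions, and 41 of the 69 genes held fractional reads in at least 1 library. Of the 69, 32 overlap an exon of another gene, 28 of them one on the opposite strand. Fractional reads also occurred in genes without such an overlap, among them Hdac1.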

How the data were processed

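The authors deposited FPKM values with a length for each gene. The submitters' processing notes name STAR, featureCounts, cutadapt, Trimmomatic and Trim Galore, with no version, and the build mm10. Annotation and strandedness: not given in the sources used here. Per the labels' protocols, polyA RNA was reverse transcribed, amplified with PCR and made into Nextera XT libraries. Multiplying FPKM by length gave reads up to 1 factor per library. Of the values above 0, 55.6% to 57.9% were whole reads (tolerance 0.001 read), so some reads were counted as fractions. Coordinates are those of the table.

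Values were analysed as log2(FPKM + 1) for genes averaging 1 FPKM or more in the 6 libraries, with 1 mean per pair in limma 3.58.1 (R 4.3.3), a variance trend and Benjamini-Hochberg adjustment over all 13443 genes at a threshold of 0.05. Fold changes on this scale understate those of low genes. The genes and lists were chosen with earlier results of these data known. Genes given by library were a set list, the 10 highest by mean, and for each comparison up to 4 with the lowest unadjusted p among those averaging 5 FPKM or more whose pairs do not overlap. The 17 alternatives were another pseudocount, filter, scaling, variance model or gene set, fits of only 2 pairs, the replicate block, limma-voom on recovered reads, and libraries left out. Of the blood cell markers, those other than Hba-a1 and Hba-a2 are not reported here.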

Additional observations from a re-analysis of the deposited data

How the results depend on the processing

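None of the 47 genes had an adjusted p below 0.05 under any of the 17 alternatives, in limma or limma-voom, and the smallest adjusted p was 0.775. None of the 12 fold changes named for the comparisons reversed. Their genes were chosen for pairs that do not overlap, so leaving out a library could not reverse them. Several other alternatives leave the coefficient as it was, so this says little about how firm the directions are. With a pseudocount of 0.1, 1 gene outside these enzymes was called in C against B. Leaving out each library in turn moved the median log2 fold change of the 47 genes over -0.19 to 0.01 in C against B, -0.07 to 0.13 in C against A and 0.0219 to 0.23 in B against A, where the highest value was without B1. Other alternatives gave -0.12 to 0.01, -0.02 to 0.12 and -0.04 to 0.13. Median scaling turned the sign of the median in C against A (-0.02) and B against A (-0.04), where it gave 21 of 47 coefficients above 0, and quantile normalization did so in B against A (-0.01). Both kept it in C against B. With no library left out, the count of the 47 genes at an unadjusted p below 0.05 was 0 or 1 in C against B and C against A. It was 0 to 2 in B against A. Kdm4d in B against A and Ehmt1 in C against A had an unadjusted p of 0.0377 and 0.0482 in limma-voom on recovered reads, Kdm4d on 1.25 to 13.5 reads a library. For Hdac2 in B against A that p was below 0.05 under 10 of the 17 alternatives. Whether the replicate numbers pair the libraries is not stated, and correlations between pairs of their differences cannot settle it. These were 0.00500 (C and B), 0.203 (C and A) and 0.0980 (B and A). C2 and A2, which stood apart on the first principal component, share the replicate number 2. With the replicate number as a block, 0 of the 47 genes were called, and the unadjusted p of Hdac2 in B against A was 0.0521.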

Other observations

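The X-linked genes among these enzymes, Kdm6a, Suv39h1, Hdac6, Hdac8 and Kdm5c, were looked at in B2, since that library had few reads on Y-linked protein-coding genes. It held 7.17 such reads, against 127.7 to 344.6 in the other 5 libraries. Kdm6a, Suv39h1 and Hdac6 were lower in 4 of the other 5 libraries than in B2. Hdac8 and Kdm5c were lowest in B2, with 1.08 and 0.118 FPKM, but these values rest on only 6.25 and 1 reads. This was chosen after the values were seen, and the sex of the pooled embryos was not given in the sources used here.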
